A study of Mus musculus with 6 samples.

Results

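Basement membranes are thin sheets of matrix that underlie epithelia and endothelia and wrap muscle and fat cells. Heterotrimers of collagen IV and of laminin each polymerise into a network, nidogen bridges the networks, and the heparan sulphate proteoglycan perlecan and the multiplexin collagens XV and XVIII fill and anchor the sheet. The normal hepatic sinusoid is known for having little continuous basement membrane, and deposition of collagen IV and laminin along it is a known feature of fibrosing liver disease. Described here are 10 genes of this structure, chosen by symbol: Col4a1, Col4a2, Lama4, Lama5, Lamb1, Lamc1, Nid1, Hspg2, Col15a1 and Col18a1. All 10 were found, each as 1 row, among the 18720 rows of the deposited tables, and all 10 passed the filter on low values.

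The libraries came from poly(A) RNA of livers of male C57BL/6 mice, 1 year old and fed a high-fat diet, which received R159, a compound known by its code name, or vehicle. Injections were intraperitoneal, 2 per week for 12 weeks. Both groups carry the same strain, age, sex and diet, with 3 libraries each and no group on another diet, so only R159 against vehicle can be compared. The series title places the study on a non-canonical arm of signalling from gp130, the receptor subunit shared by interleukin-6 family cytokines. Whether each library is a separate animal is not stated in so many words, so p-values measure the spread between libraries, which may be partly technical.

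Values are the authors' normalised estimated counts. Means are given ± SD with n = 3 per group. Log2 fold changes (R159 minus vehicle, on the scale of log2(value + 1)) come with their SE and the Benjamini-Hochberg adjusted p of limma over 16594 tested genes, and a gene is called at an adjusted p under 0.05. The R159 libraries held 51.3 to 55.7 M estimated reads and the vehicle libraries 66.0 to 76.7 M. The lowest value of any of the 10 genes, that of Lama4 in R159 replicate 2, rested on 96.0 estimated reads. Hepatocyte markers, read as a check of the labelled tissue, summed to between 3913760 and 7479640 in each library, and none of the markers of 7 liver cell types was at 0 throughout.

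In R159 livers, 5 of the 10 genes were lower and none was called higher: Nid1, Col4a1, Col4a2, Lamc1 and Col18a1. With the trend of fold change on transcript length removed, described further on, 1 remained lower, Nid1, and 1, Lama5, was called higher. On the deposited values, 27.0% of all tested genes were called at the adjusted threshold, 14.2% lower and 12.8% higher. At an unadjusted p under 0.05 limma gave 6 of the 10 lower and 1, Lama5, higher. The share of all tested genes at that looser threshold was not counted, so the shares above are no measure for it. The fitted change was below 0 for 9 of the 10, against 50.0% of all tested genes. Lama5 lay above vehicle in every R159 library and just missed the threshold, and Hspg2, Lama4 and Col15a1 had overlapping groups. The groups did not overlap for 7 of the 10 genes, 6 of them lower in R159, against 46.2% of all tested genes and 23.6% in the lower direction. Means ranged from 6.37-fold lower for Nid1 to 1.73-fold higher for Lama5.

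Sequence at or upstream of the start is shown for 4 of these genes, those of the collagen IV pair and those with the lowest and the highest fold change. Col4a1 and Col4a2 are neighbours transcribed away from each other, and both were lower in R159. RefSeq on GRCm38.p6, a build other than the mm39 of the submitters' processing notes, starts Col4a2 at chr8:11312805 on the plus strand and Col4a1 at chr8:11312826 on the minus strand, so that the first bases of both transcripts cover the same 22 positions. The first line gives that stretch on the plus strand (chr8:11312801-11312830), with the 22 shared bases in capitals. The other lines give upstream sequence of Nid1, the gene with the lowest fold change (chr13:13437352-13437550, plus strand, ending 51 bases before its start), and of Lama5, the gene with the highest (chr2:180225860-180226109, minus strand, 250 bases up to its start), with capitals for each CCAAT or GGGCGG on either strand.
Col4a1 and Col4a2: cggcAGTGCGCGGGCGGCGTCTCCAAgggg
Nid1: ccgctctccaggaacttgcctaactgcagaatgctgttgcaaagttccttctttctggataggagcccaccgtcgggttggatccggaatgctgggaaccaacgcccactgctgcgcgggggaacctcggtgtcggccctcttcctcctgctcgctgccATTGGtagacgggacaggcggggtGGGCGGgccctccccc
Lama5: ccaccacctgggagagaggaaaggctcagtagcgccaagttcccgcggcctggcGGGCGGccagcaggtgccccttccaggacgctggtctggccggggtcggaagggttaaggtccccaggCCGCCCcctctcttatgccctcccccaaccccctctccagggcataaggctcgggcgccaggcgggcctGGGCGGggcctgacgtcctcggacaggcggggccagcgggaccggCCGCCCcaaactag

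RefSeq windows of 300 bases around the start were matched by symbol for 8 of the 10 genes, as 9 windows, since Col18a1 has 2. GGGCGG or CCGCCC, the GC box, was in 7 of the 9 windows and in 35.7% of 32851 windows of all genes. The Col4a1 and Col4a2 windows share 78 bases, and the 1 GC box of the Col4a1 window lies in that stretch and is counted for both. CCAAT or ATTGG was in 5 of 9 windows and in 37.4% of all. TATAAA or TTTATA was in 0 of 9 and in 13.6% of all. The Nid1 stretch holds 1 CCAAT box on the minus strand and 1 GC box, and the Lama5 stretch 4 GC boxes and no CCAAT. The bases between the Col4a2 and Col4a1 starts hold 1 GC box. These are matches of letters in 1 window per start and not measured sites.

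Collagen IV is the scaffold of every basement membrane, and its most widespread form joins 2 α1 chains with 1 α2 chain. Col4a1, the α1 gene, had values of 825, 1238 and 2178 in the R159 libraries (replicates 1 to 3, the order used throughout), against 5329, 3355 and 3288 in vehicle. All 3 R159 libraries lay below all 3 vehicle libraries, and the spread within R159 was wide. The mean was 1414 ± 693 against 3991 ± 1159.8, a log2 fold change of -1.57 (SE 0.34, limma adjusted p = 0.0113). Col4a2, the α2 gene, measured 661, 699 and 1287 in R159 and 2761, 1939 and 2213 in vehicle. Its groups were likewise apart, with R159 replicate 3 highest in its group and vehicle replicate 1 highest of all 6, as for Col4a1. The mean was 882 ± 351 against 2304 ± 419 (log2 fold change -1.44, SE 0.27, limma adjusted p = 0.00704). Neither collagen IV call held after length correction (adjusted p = 0.0907 and 0.0575).

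The balance of the paired chains was read as a ratio within each library. Per transcript length, the ratio of Col4a1 to Col4a2 came to 1.22, 1.73 and 1.65 in R159, against 1.88, 1.69 and 1.45 in vehicle, so the groups overlapped. The log2 ratio differed by -0.14 (R159 minus vehicle; exact permutation test, two-sided, p = 0.6, adjusted p = 0.8 over 4 ratios). With 3 libraries against 3 this test cannot go below 0.1, so it cannot pass 0.05 for any of the 4 ratios. Without R159 replicate 1 the difference was 0.022.

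**Figure D1:**
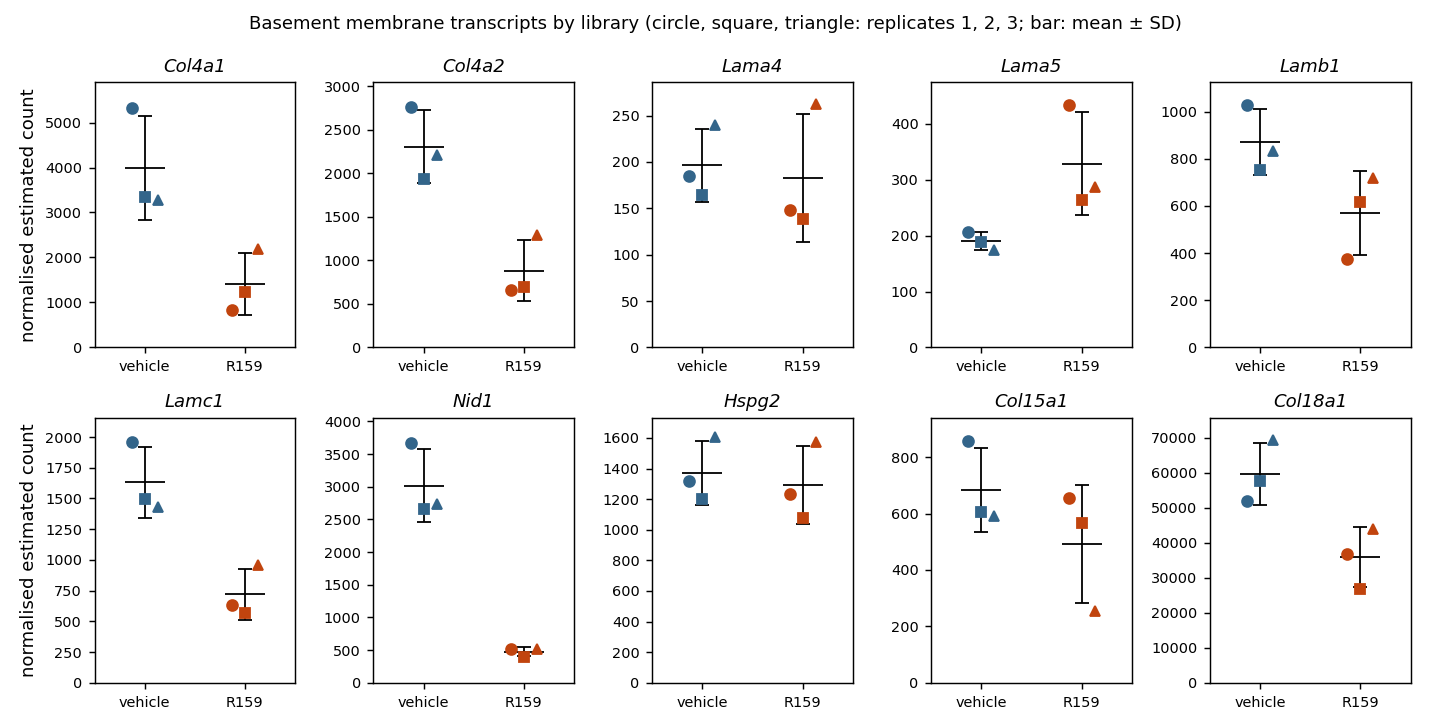
Normalised estimated counts of the 10 genes (vertical axes from 0, each gene on its own scale) in 3 vehicle and 3 R159 libraries; symbols mark replicates 1 to 3 and the black bar is the mean ± SD. The R159 libraries lie below every vehicle library for Col4a1, Col4a2, Lamb1, Lamc1, Nid1 and Col18a1 and above every one for Lama5, and the groups overlap for Lama4, Hspg2 and Col15a1.

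Nidogen-1, the glycoprotein that links the laminin γ1 chain to collagen IV, showed the lowest fold change. Nid1 measured 515, 394 and 514 in R159 and 3663, 2653 and 2737 in vehicle. The highest R159 library lay far below the lowest vehicle library, and the R159 values were closer together than those of the other 9 genes relative to their mean (SD 14.6% of the mean). The mean was 474 ± 69.4 against 3018 ± 560.4 (log2 fold change -2.66, SE 0.19, limma adjusted p = 0.00163). Only 109 of the 16594 tested genes had a lower fold change, and 10 of the 2588 tested genes with a coding transcript of at least 5172 nt, the shortest length among the 10. Its paralogue Nid2, which can take over part of the role of nidogen-1, measured 499, 251 and 383 in R159 and 348, 355 and 480.1 in vehicle, with overlapping groups (log2 fold change -0.10, limma adjusted p = 0.808). Whether the changes of these paralogues differ was not tested.

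Laminins are trimers of an α, a β and a γ chain, and the γ1 chain enters most of them. Lamc1, the γ1 gene, measured 635, 571 and 959.6 in R159 and 1963, 1497 and 1431 in vehicle, without overlap. The mean was 722 ± 208 against 1630.3 ± 289.6 (log2 fold change -1.20, SE 0.23, limma adjusted p = 0.00777), and the call did not hold after length correction (adjusted p = 0.0939). Lamb1, the β1 gene, measured 373, 615 and 718 in R159 and 1027, 752 and 833 in vehicle. R159 replicate 3 came within a short distance of vehicle replicate 2, and the difference was not past the threshold (-0.65, SE 0.26, limma adjusted p = 0.0883).

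The α chain sets the cell receptors that a laminin binds, and neither α chain gene among the 10 was called on the deposited values. Lama4, whose product is typical of vessels, measured 148, 138 and 262 in R159 and 185, 164 and 239.6 in vehicle. R159 replicate 3 was the highest of all 6 libraries, and the means of 183 ± 68.9 and 196 ± 39.0 lay within the spread (log2 fold change -0.14, 95% interval -0.84 to 0.55, limma adjusted p = 0.752). Lama5, whose product is the α chain of mature epithelial and endothelial basement membranes, measured 435, 265 and 287 in R159 and 206, 189.5 and 174 in vehicle. Every R159 library was above every vehicle library, with R159 replicate 1 standing highest. The mean was 329 ± 92.4 against 189.9 ± 15.9 (log2 fold change 0.76, SE 0.25, limma adjusted p = 0.0522), and without R159 replicate 2 the gene was called (0.89, limma adjusted p = 0.0476).

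Within libraries, the ratio of Lamb1 to Lamc1 per transcript length came to 0.774, 1.42 and 0.986 in R159, against 0.690, 0.662 and 0.767 in vehicle. The groups were apart, by a narrow margin between R159 replicate 1 and vehicle replicate 3. The log2 ratio differed by 0.54 (exact permutation test, two-sided, p = 0.1, the lowest it allows; adjusted p = 0.4 over 4 ratios). For Lama4 to Lama5 it came to 0.644, 0.983 and 1.72 in R159, against 1.69, 1.63 and 2.59 in vehicle. R159 replicate 3 overlapped the vehicle range, and the difference in log2 ratio was -0.90 (exact permutation test, two-sided, p = 0.3, adjusted p = 0.6).

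**Figure D2:**
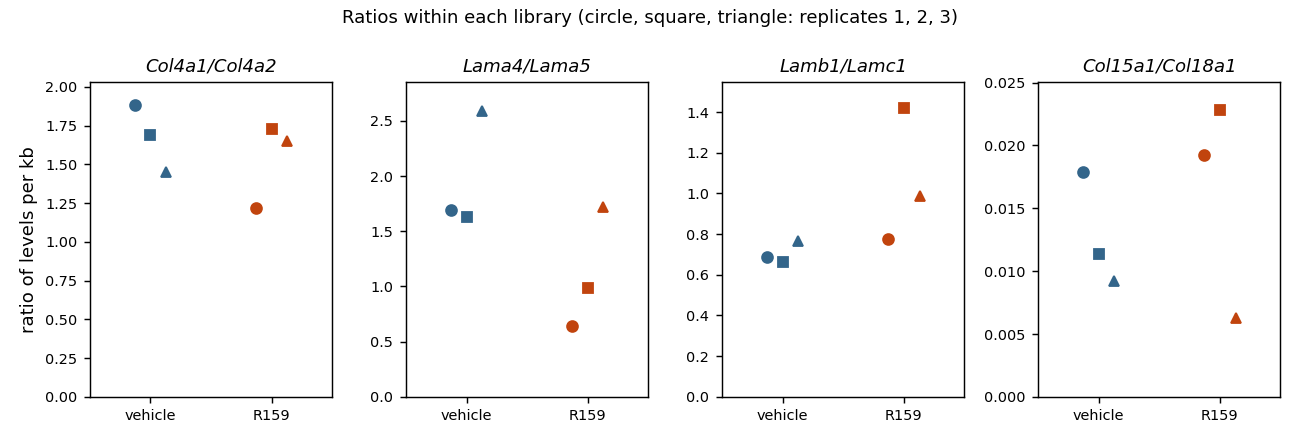
Ratio of 2 genes' levels per kb of transcript (vertical axes from 0) within each of the 6 libraries, for Col4a1/Col4a2, Lama4/Lama5, Lamb1/Lamc1 and Col15a1/Col18a1; symbols mark replicates 1 to 3. The groups do not overlap for Lamb1/Lamc1 (0.774 to 1.42 in R159, 0.662 to 0.767 in vehicle) and overlap for the other pairs.

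Hspg2 encodes perlecan, the large heparan sulphate proteoglycan of basement membranes. It measured 1233, 1074 and 1572 in R159 and 1317, 1198 and 1605 in vehicle. The ranges nearly coincided, with replicate 2 lowest and replicate 3 highest in each group. The log2 fold change was -0.09 with a 95% interval from -0.53 to 0.34 (limma adjusted p = 0.743). Its lower bound lies above the fitted changes of all 5 called genes, but the interval of Col18a1 (-1.29 to -0.21) overlaps that of Hspg2. Whether the changes of these genes differ was not tested.

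Collagens XV and XVIII are the multiplexins, whose C-terminal fragments include endostatin, released from collagen XVIII. Hepatocytes are a known source of collagen XVIII, which is rare for a matrix collagen. Col18a1 measured 36899, 26833 and 43949 in R159 and 51849, 57653 and 69369 in vehicle, without overlap. The mean was 35894 ± 8602 against 59624 ± 8925 (log2 fold change -0.75, SE 0.24, limma adjusted p = 0.0463). Of the 5 calls this one was the least firm, since leaving out any library other than R159 replicate 3 ended it (adjusted p = 0.0559 without R159 replicate 1, 0.114 without R159 replicate 2, and 0.0782, 0.131 and 0.150 without vehicle replicates 1, 2 and 3). Col15a1 measured 657, 565 and 256 in R159 and 856, 606 and 592 in vehicle. R159 replicate 1 lay inside the vehicle range and R159 replicate 3 far below it, and the change was not called (-0.56, SE 0.34, limma adjusted p = 0.244). The Col15a1 to Col18a1 ratio per length stayed between 0.00631 and 0.0228 in the 6 libraries, and the groups overlapped (log2 difference 0.19, exact permutation test, two-sided, p = 0.8, adjusted p = 0.8).

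Per kilobase of the longest coding transcript, Col18a1 stood highest in both groups, at 10657 ± 1595 in vehicle and 6415 ± 1537 in R159. In vehicle the order below it was Col4a1 (603 ± 175), Nid1 (495 ± 92.0), Col4a2 (357 ± 64.9), Lamc1 (214 ± 38.0), Lamb1 (151 ± 24.4), Col15a1 (132 ± 28.8), Hspg2 (96.8 ± 14.7), Lama4 (32.5 ± 6.45) and Lama5 (16.7 ± 1.39). Neighbours in this order lay within about 1 SD of each other for Col4a1 and Nid1 and for Lamb1 and Col15a1. In R159 Nid1 stood in place 8, at 77.8 ± 11.4. Neighbours from Col4a1 (214 ± 105) and Col4a2 (137 ± 54.4) through Lamb1 (98.3 ± 30.7), Col15a1 (95.3 ± 40.6), Lamc1 (94.7 ± 27.3) and Hspg2 (91.2 ± 17.9) to Nid1 lay within the larger SD of each pair. Lama4 and Lama5, the α chain genes among the 10, remained lowest, at 30.3 ± 11.4 and 28.9 ± 8.12.

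Transcripts of these 10 genes are long, 5172 to 14187 nt with a median of 6270.5 nt, and fold changes in this comparison ran with transcript length (Spearman's rho = -0.498 over 11027 coding genes, which are not independent replicates). Among the 2588 tested coding genes of at least 5172 nt, the median log2 fold change was -0.49, with 35.2% called, 31.9% lower and 3.25% higher. The 5 of 10 called lower were a larger share than this and than the 14.2% of all tested genes, and neither difference was tested. The trend was uneven across libraries. Long transcripts sat at a median of 0.00, -0.45 and -0.26 log2 units from the mean of the 6 libraries in R159 replicates 1 to 3, and at 0.17, 0.24 and 0.33 in vehicle. The 10 genes sat at a median of -0.53, -0.59 and -0.05 in R159 and 0.60, 0.23 and 0.40 in vehicle. R159 replicate 1, whose long transcripts were at 0.00, held the lowest Col4a1, Col4a2 and Lamb1 values of all 6 libraries. R159 replicate 2, whose long transcripts were at -0.45, held the lowest Nid1, Lamc1, Col18a1, Lama4 and Hspg2 values. In both of these libraries 8 of the 10 genes were below their mean, and 6 were in R159 replicate 3.

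**Figure D3:**
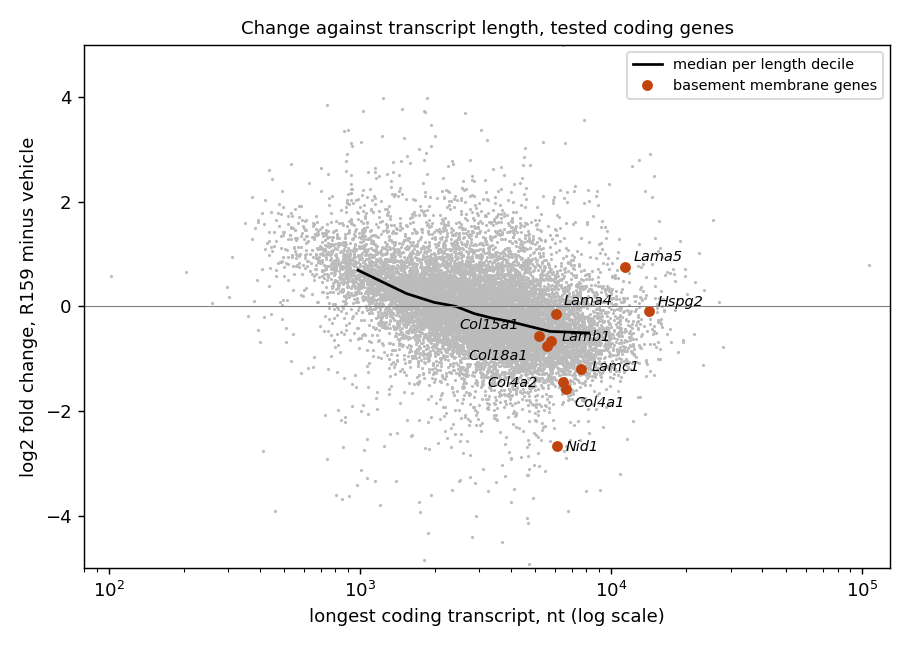
Log2 fold change (R159 minus vehicle) against the length of the longest coding transcript (nt, log scale) for 13501 tested coding genes (grey; 8 lie beyond the axis), with the median per length decile (black line) and the 10 basement membrane genes (red). Nid1, Col4a1, Col4a2 and Lamc1 lie well below the line, Lama4 above it and Lamb1, Col15a1 and Col18a1 close to it; Lama5 and Hspg2, longer than the last point of the line, lie above its level there.

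With the length trend subtracted from each library, 1 of the 10 genes was called lower and 1 higher, where 18.7% of 13501 coding genes were called, 8.73% lower and 9.93% higher. Among those of at least 5172 nt 20.9% were called, 9.43% lower and 11.5% higher. Nid1 remained lower (log2 fold change -2.18, SE 0.18, limma adjusted p = 0.00311). Lama5, with 11388 nt the longest of the 10 after Hspg2, was then called higher (1.22, SE 0.20, limma adjusted p = 0.00737). Col4a1 (-1.07, limma adjusted p = 0.0907), Col4a2 (-0.94, 0.0575) and Lamc1 (-0.68, 0.0939) lost their calls and kept 95% intervals below 0 for the single gene. Col18a1 went to -0.30 (adjusted p = 0.313). Nid1 and Lama5 kept their length-corrected calls when each library was left out in turn (adjusted p 0.00582 to 0.0144 and 0.0122 to 0.0371).

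**Figure D4:**
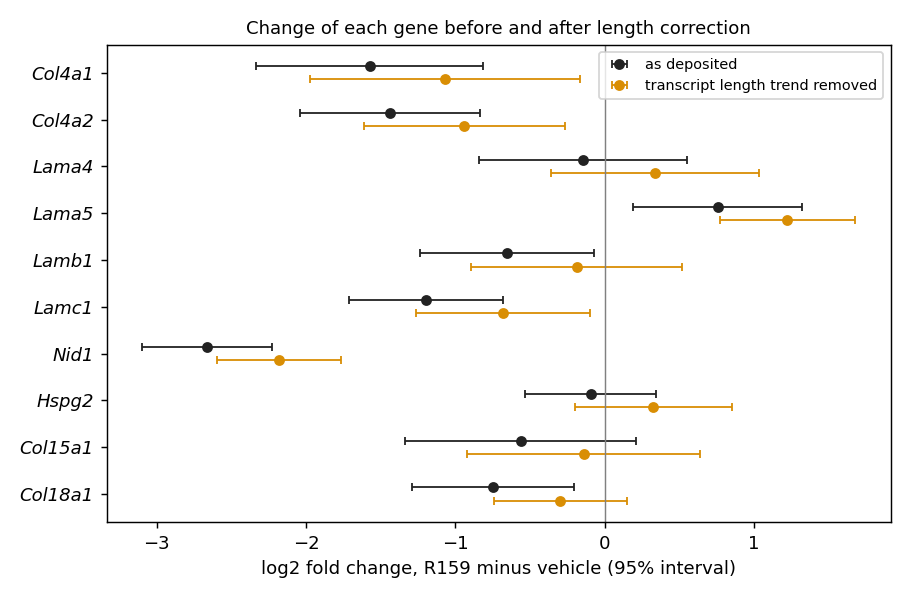
Log2 fold change (R159 minus vehicle, horizontal axis) of the 10 genes with its 95% interval, from the deposited values (black) and with the transcript length trend removed (orange). The correction moves every gene to the right; Nid1 stays below 0 at -2.18, and the interval of Lama5 moves further above 0.

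Other parts of basement membranes, from a list of 27 genes of which 26 were tested, gave 2 lower and 1 higher (7.69% lower, against 14.2% of all genes), with a median log2 fold change of -0.23 where all tested genes had 0.00. Lama2, the α chain of muscle and stromal laminin, measured 23.9, 41.7 and 85.8 in R159 and 168, 109 and 133 in vehicle (-1.59, SE 0.47, limma adjusted p = 0.0350). Egflam, which encodes the dystroglycan ligand pikachurin, was low, at 7.59 to 20.1 in R159 and 27.7 to 67.3 in vehicle (-1.82, limma adjusted p = 0.0466). Hmcn2, which encodes the large matrix protein hemicentin-2, was higher, at 93.1 to 139.8 in R159 and 36.0 to 72.3 in vehicle (1.12, limma adjusted p = 0.0499). Each of these 3 calls held in only 1 of the 6 fits that left out a library. After length correction Lama2 (adjusted p = 0.187) and Egflam (0.131) were not called and Hmcn2 was (0.0313). The list of 26 then had 0 lower and 3 higher, where 8.73% of all tested coding genes were lower and 9.93% higher. Sparc, a collagen IV binding glycoprotein, was not called (-0.73, limma adjusted p = 0.101).

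Receptors were the list with most members lower, 7 of 20 (35.0%, against 14.2% of all tested genes), with 0 higher. Their median log2 fold change was -0.57 and their median transcript length 4621.5 nt. Dag1 encodes dystroglycan, which binds laminin, perlecan and agrin. It measured 2347, 1530 and 2682 in R159 and 7364, 6964 and 10681 in vehicle, a gap wider than the spread in either group (log2 fold change -1.94, SE 0.25, limma adjusted p = 0.00343). The length-corrected change was -1.48 (adjusted p = 0.00456). Itgb5 measured 2990, 3484 and 3757 in R159 and 6420, 6293 and 6930 in vehicle (-0.95, SE 0.15, limma adjusted p = 0.00476; 0.00871 after length correction). Its partner Itgav measured 639, 634 and 759 in R159 and 1358, 1363 and 1424 in vehicle (-1.03, SE 0.16, limma adjusted p = 0.00431), and was not past the threshold after length correction (-0.52, adjusted p = 0.0640). Both chains belong to integrins that bind vitronectin and other RGD proteins. Besides these, Itga8, Itga9, Itgb1 and Sdc1 were called lower. Of the 7 receptor calls, 6 held when each library was left out in turn and 3 held after length correction. Itga7, which pairs with β1 as a laminin receptor, was then called higher (0.60, limma adjusted p = 0.0363). Among all tested coding genes, 8.73% were lower and 9.93% higher after length correction.

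Among 21 tested genes of collagen synthesis, export and crosslinking and of heparan sulphate chain synthesis, 5 were lower and 0 higher. The share lower was 23.8%, against 14.2% of all tested genes, and the median was -0.47. Colgalt1, which adds galactose to collagen hydroxylysine, measured 3067, 3154 and 2724 in R159 and 5896, 5572 and 5030.4 in vehicle (-0.88, SE 0.15, limma adjusted p = 0.00502). Mia3 encodes TANGO1, which loads bulky collagens for export from the endoplasmic reticulum. It measured 8285, 5676 and 6765 in R159 and 11473, 12644 and 14287 in vehicle (-0.90, SE 0.18, limma adjusted p = 0.00956). Both kept their calls after length correction (adjusted p = 0.0116 and 0.0164). Loxl2, which crosslinks collagen IV, measured 121, 105 and 298 in R159 and 679, 379 and 525 in vehicle (-1.71, SE 0.40, limma adjusted p = 0.0156). Its call was lost after length correction (adjusted p = 0.0608) and when vehicle replicate 1 or 3 was left out. Serpinh1, the collagen chaperone HSP47, was not called (-0.52, limma adjusted p = 0.302).

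Among 17 tested proteases and inhibitors, 4 were lower and 0 higher (23.5% lower, against 14.2% of all tested genes), with a median of -0.67. Mmp2, a gelatinase that cleaves collagen IV, measured 138, 60.7 and 171 in R159 and 486, 365 and 329.6 in vehicle (-1.77, SE 0.38, limma adjusted p = 0.0115; 0.0229 after length correction). Mmp15, a membrane-bound metalloproteinase, measured 1549, 2081 and 2687 in R159 and 5452, 5233 and 4277 in vehicle (-1.27, SE 0.21, limma adjusted p = 0.00525; 0.0444 after length correction). Mmp19 was lower by less (-0.56, limma adjusted p = 0.0291) and lost its call after length correction (adjusted p = 0.0893). Over the 4 lists together (26, 20, 21 and 17 tested genes), 18 were lower and 1 higher, against 14.2% and 12.8% of all tested genes. Without vehicle replicate 1 or vehicle replicate 3, 10 were lower, where 7.53% and 6.70% of all tested genes were lower in those 2 fits. After length correction 8 were lower and 5 higher, against 8.73% and 9.93% of all tested coding genes. For lists with 0 adjusted calls in a direction, the counts at an unadjusted p under 0.05 (limma) follow, lower then higher. They were 10 and 0 of 20 receptors, 7 and 1 of 21 synthesis genes, and 10 and 1 of 17 proteases and inhibitors. Among markers they were 2 and 1 of 8 hepatocyte, 6 and 1 of 15 stellate or fibroblast, and 4 and 2 of 9 macrophage. Cholangiocyte markers gave 3 and 1 of 7, and erythroid markers 0 and 5 of 6. The share of all tested genes at this unadjusted threshold was not counted. The lists were drawn up with earlier results of these data known.

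**Figure D5:**
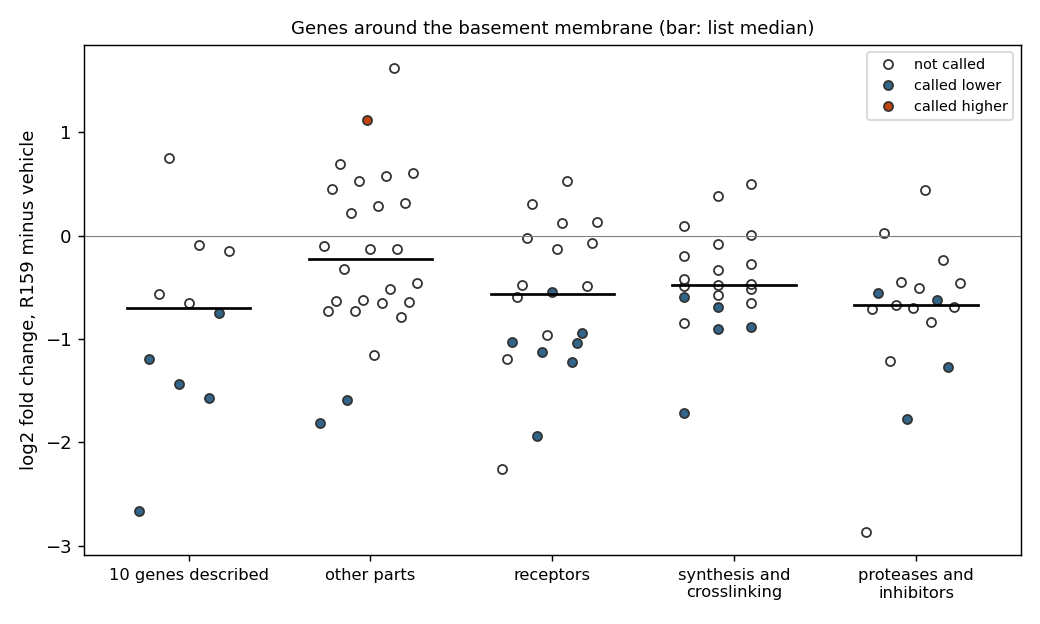
Log2 fold change (R159 minus vehicle, vertical axis) of each tested gene in the set of 10 and in 4 related lists; filled points were called by limma (blue lower, red higher) and the bar is the list median. The medians run from -0.70 in the set of 10 to -0.23 among other basement membrane parts.

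In whole liver, fewer cells of a type and less RNA per cell cannot be told apart. Marker lists of liver cell types, among them cells that make basement membrane, were therefore read beside the 10 genes. For all tested genes the shares were 14.2% lower and 12.8% higher, and the fitted change was below 0 for 50.0%. Of 15 stellate cell and fibroblast markers, 4 were lower and 0 higher, and the fitted change was below 0 for 9. The other 6 were above 0 and not called: Rgs5 (0.59), Hand2 (0.50), Ecm1 (0.42), Des (0.40), Dcn (0.28) and Acta2 (0.04). The summed level ranged from 21868 to 47973 in R159 and from 29448 to 47403 in vehicle. Col1a1, the fibrillar collagen gene, measured 551, 775 and 1359 in R159 and 6869, 3113 and 3416 in vehicle (-2.32, SE 0.37, limma adjusted p = 0.00483). Col1a2, its partner chain, was also lower (-2.30, limma adjusted p = 0.00496). Of the 4 calls, only those of Col1a1 and Col1a2 held after length correction (limma adjusted p = 0.0204 and 0.0196), where 8.73% of all tested coding genes were lower. These 2 calls also held in each fit that left out a library. Col3a1 was lower (-1.08, limma adjusted p = 0.0393), and was not past the threshold after length correction (-0.63, adjusted p = 0.268) or without R159 replicate 1 or 2 or vehicle replicate 1 or 3.

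Of 10 sinusoidal endothelial markers limma called 0 (1 lower and 1 higher at an unadjusted p under 0.05), and their sums overlapped (12047 to 13812 in R159, 10691 to 14660.3 in vehicle). After length correction 2 of them were called higher, Stab1 (0.92, limma adjusted p = 0.00417) and Fcgr2b (0.54, adjusted p = 0.0465), and 0 lower. The shares of all tested coding genes were then 9.93% higher and 8.73% lower. Of 11 other vascular endothelial markers 3 were lower, Vwf (-1.21), Tek (-0.85) and Ephb4 (-0.55), and 1, Egfl7 (0.89), was higher, with sums of 7860 to 12299 and 10474 to 12359. None of these 4 calls held after length correction (adjusted p from 0.0729 for Vwf to 0.314 for Ephb4). Tek kept its call in 4 and Ephb4 in 2 of the 6 fits that left out a library.

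Of 7 cholangiocyte markers 0 were called lower and 1, Krt7, was higher (1.32, limma adjusted p = 0.0251), while 5 of the 7 had a fitted change below 0 (median -0.94). Krt7 lost its call in 4 of the 6 fits that left out a library. Spp1 (-1.26), Cldn4 (-2.71), Muc1 (-1.03) and Epcam (-0.67) lay below vehicle in every R159 library without being called, and Spp1 was called lower after length correction (adjusted p = 0.0281). Krt19 also had a fitted change above 0 without being called (0.98, limma adjusted p = 0.182). The cholangiocyte sums were 2075 to 4196 in R159 and 4214 to 12210 in vehicle. Spp1 made up most of each sum, at 1595, 3162 and 2937 in R159 and 11470, 5198 and 3384 in vehicle.

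Of 9 macrophage markers Adgre1 (-1.77), Cd5l (-1.11) and Ccr2 (-0.94) were lower, with sums of 13900.0 to 16767 in R159 and 15686 to 23857 in vehicle. Ccr2 lost its call after length correction (adjusted p = 0.263) and in 5 of the 6 fits that left out a library. Marco and Timd4, also of this list, lay above vehicle in every R159 library without being called. Marco had 1375, 808 and 2874 in R159, against 20.8, 397 and 622 in vehicle (3.07, limma adjusted p = 0.0619), and the fitted change of Timd4 was 2.09 (adjusted p = 0.0872). Of 8 hepatocyte markers Apob and Hnf4a were lower, and neither was called after length correction. Of 6 erythroid markers 4, among them Hbb-bt, Hbb-bs and Hba-a1, were higher (sums 40705 to 59913 and 12935 to 21824), and 1 of these, Hbb-bt, was called after length correction. The part of these markers in the result was not tested.

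By the smallest distance between profiles over the 6 libraries, the genes most like the median of the 10 were Emilin1, Pspc1, Ppp1r9b, Thumpd1 and Trim35, among 11992 genes averaging 100 or more. The root mean square distance was 0.0490 to 0.0913 log2 units. Emilin1, which encodes a glycoprotein of elastic fibres, measured 905, 948 and 1352 in R159 and 2075, 1658 and 1748 in vehicle.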

How the data were processed

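The authors deposited 1 table per library with a gene symbol and a normalised estimated count, a signal: fractional counts divided by 1 factor per sample. Build mm39 and the tools STAR 2.7.8a, cutadapt, FastQC 0.11.9, R 4.2.3 and DESeq2 (version written as 3.5) come from the submitters' processing notes, without roles. The kit was stranded, per the labels' protocols; the counter, its strand setting, annotation and filter were not given in the sources used here. Low values lie on multiples of 1 step per library, which gave the estimated depth; within 0.02 of a whole read lay only 67.8% to 76.1% of the values below 200 reads, so no count model was used.

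Genes with a mean of at least 10 were kept (16594; 2126 fell below) and log2(value + 1) was fitted on group alone with limma 3.58.1 under R 4.3.3, with a mean trend in eBayes. The code was tested on simulated data. Lengths are the longest coding transcript in GENCODE M21 (GRCm38), found for 81.4% of tested genes and all 10 members; the trend was a lowess curve (span 0.3) over genes with a mean of at least 100, and its removal leaves genes without a length out. Promoter windows are RefSeq's (GRCm38.p6). Ratios were tested by exact permutation over libraries.

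The 10 genes, the 4 related lists, the 7 marker lists and the length correction were chosen with earlier results of these data known. From each list, markers included, up to 3 called genes per direction with the smallest p and no overlap of groups were to be named, besides the 10, Col1a1, Col3a1 and the 5 of nearest profile; Nid2, Sparc, Serpinh1, Itga7, Itga8, Itga9, Itgb1, Sdc1, the uncalled markers named and those of the closing section were chosen after their values were seen. Alternatives are given in the closing section. Python 3.11.15 with matplotlib 3.10.9 drew the plots.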

Additional observations from a re-analysis of the deposited data

How the results depend on the processing

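Nid1, Col4a1, Col4a2 and Lamc1 stayed lower past the threshold under every alternative run except the length corrections, and Nid1 under those too. The replicate numbers did not pair the libraries (correlation of same-numbered deviations -0.0981, 0.0314 and 0.108), and the replicate block changed no call among the 10 genes (Col18a1 -0.75, limma adjusted p = 0.0350; Nid1 -2.66, 0.00288). Length correction gave Col4a1 -1.07, Col4a2 -0.94, Lamc1 -0.68 and Col18a1 -0.30, none called, with or without the replicate block, and with it 1 of the 10 was lower and 1, Lama5 (1.22), higher. Col18a1 (-0.75) also lost its call with no filter (adjusted p = 0.0505) and without the eBayes trend (0.0757). Lama5 was called at a mean of at least 50 and at a threshold of 0.1 (0.76 in both) and with sample weights (0.68), which made 1 member higher in each. Lamb1 was called with equal totals (-0.86), with equal totals without the 20 highest genes (-0.76) and at a threshold of 0.1 (-0.65). Equal totals moved the median of all genes by -0.21 (-0.11 without the 20 highest), and the higher share of all calls from 47.4% to 28.8% (37.6%). Hspg2 turned to 0.010 with quantile normalization and 0.10 with sample weights, and to 0.33 after length correction; Lama4 to 0.17 with sample weights and 0.34 after length correction; the cause was not tested. All-gene calls were 1443 lower without the eBayes trend, 1174 higher with equal totals, 1178 lower and 1340 higher after length correction, and 1043 and 1201 with the block added. The 4 related lists then had 8 lower (7 with the block) and 5 higher; they had 0 higher with either equal total, no filter, a mean of at least 50 or no eBayes trend, 2 with sample weights and 4 at a threshold of 0.1.

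Leaving out each library in turn gave Nid1 -2.75 to -2.52, Col4a1 -1.94 to -1.24, Col4a2 -1.74 to -1.26, Lamc1 -1.42 to -1.05, Col18a1 -0.91 to -0.56, Lamb1 -0.85 to -0.38, Col15a1 -0.82 to -0.15, Lama5 0.54 to 0.89, Lama4 -0.43 to 0.026 and Hspg2 -0.24 to 0.031. Positive values of Lama4 (0.026 and 0.0075) and Hspg2 (0.031 and 0.024) came without R159 replicate 2 and without vehicle replicate 3. Members called ranged from 4 to 5 lower and 0 to 1 higher, all genes from 923 to 2909 lower and 918 to 2516 higher (1252, 923 and 1117 lower without vehicle replicates 1, 2 and 3), and the 4 lists from 10 to 24 lower and 0 to 2 higher. Ratio differences ranged from -0.24 to 0.022 for Col4a1/Col4a2, -1.28 to -0.57 for Lama4/Lama5, 0.31 to 0.75 for Lamb1/Lamc1 and -0.16 to 0.76 for Col15a1/Col18a1, which was -0.041, -0.16 and -0.023 without R159 replicate 1, R159 replicate 2 and vehicle replicate 3. Length-corrected values ranged from -2.28 to -1.99 for Nid1 and 1.12 to 1.33 for Lama5. What depth limits beside the spread between libraries was not tested.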

Other observations

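The genes in this paragraph were chosen after their values were seen. The collagen IV chains of specialised basement membranes were low in these livers and had overlapping groups. Col4a3 measured 28.8 to 41.7 in R159 and 16.2 to 70.5 in vehicle, Col4a4 27.3 to 76.9 and 22.6 to 58.7, and Col4a5 18.7 to 76.0 and 54.7 to 83.1. Lamb2, the β2 chain that can replace β1, measured 407, 290.4 and 753 in R159 and 301, 274 and 358 in vehicle (log2 fold change 0.53, limma adjusted p = 0.254). Agrn, which encodes the proteoglycan agrin, measured 4528, 2959 and 2482 in R159 and 2580.4, 2633 and 2526 in vehicle. It was not called on the deposited values (0.32, limma adjusted p = 0.298) and was called higher after length correction (0.83, adjusted p = 0.0124). Bmp1, whose product processes procollagens, laminin and perlecan, was above vehicle in every R159 library, at 6092 to 7634 against 4667 to 5391 (0.44, limma adjusted p = 0.0607; 0.70 and 0.00762 after length correction). Col7a1, the anchoring fibril collagen, was low, at 17.3 to 57.4 in R159 and 7.54 to 14.6 in vehicle (1.63, limma adjusted p = 0.0825; 2.13 and 0.0360 after length correction).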
